A study of Mus musculus with 8 samples.

Results

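Prdm4 binding was compared between 2 independently derived clones of mouse embryonic stem cells (ESCs), B1 and B6, that carry the same tagged protein. Both clones came from the CCE line of 129/Sv background and stably expressed full-length Prdm4 fused to EGFP at its C terminus. The fusion was driven in both by the strong, constitutive chicken beta-actin promoter of a pCAGGS vector with a puromycin resistance cassette, on top of the cells' own wild-type Prdm4. Each clone was assayed in 2 ChIP-seq (chromatin immunoprecipitation-sequencing) experiments with a mouse monoclonal antibody to GFP, which gives 4 of the 8 samples in the series. The other 4 samples are the mouse IgG controls paired with them, for which no peak list was analysed here. B1 and B6 stand for 1 clone each, so clonal identity and anything else that differs between the cultures (transgene copy number, level of the fusion protein, handling) cannot be told apart. Whether experiments of a clone came from separate cultures is not stated, so the spread within a clone may be technical. A peak list holds no expression values, so the ESC label was not checked against marker genes.

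Prdm4 is a zinc finger protein with a PR domain, related to SET domains, and several relatives of this family act as sequence-specific regulators of cell fate in the embryo. Its zinc fingers recognise a tripartite sequence made of a G-rich block, a short spacer, a CT pair and a conserved GAAAC core. In a ChIP-seq experiment on a tagged protein, chromatin fragments that carry the tag are pulled down and sequenced, and a peak marks a site where they pile up over the control. A peak that is found in one clone and missed in another may lie just under the limit of the peak caller there, so a missing peak is not a measurement of zero binding.

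The deposited lists held 1470 and 1806 peaks in B1 replicates 1 and 2 and 1446 and 1266 peaks in B6 replicates 1 and 2. Each peak has a score from the peak caller, higher for stronger peaks, whose scale is not named in the sources used here. The median score was 15.2, 13.7, 13.8 and 13.8 in the same order. Read numbers behind a peak are not part of the lists, and without a known depth the counting error of a score cannot be computed. Peaks on chromosomes 1 to 19 and X that overlapped by 1 bp or more were merged into 2343 intervals. Of these, 900 had a peak in all 4 lists, 125 had a peak in both B1 lists and no B6 list (called B1 only here), and 26 had a peak in both B6 lists and no B1 list (B6 only). These 1051 intervals carry the comparison, and the other 1292 had a peak in 1, 2 or 3 lists in some other combination.

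The sequences at the leading intervals are shown first, because the motif is what most intervals of all kinds had in common. The search was for GGG, a spacer of 1 to 4 bases, CT, any 1 base and GAAAC, on both strands, with the GAAAC part complete and up to 2 mismatches allowed in the other letters. Sequences are from the mm9 genome, 5′ to 3′ on the strand of the match. Capitals mark the positions of the GGG, CT and GAAAC parts, so a capital that departs from these letters is a mismatch. From the B1 only list, the interval upstream of Kcnn4 (chr7:25154597-25154881) held an exact match on the minus strand and the interval in a Gata3 intron (chr2:9794215-9794541) a match with 1 mismatch. From the B6 only list, the intergenic interval nearest Gm6741 (chr17:91818702-91818929) held an exact match, and the intervals nearest Stfa3 (chr16:36488339-36488535) and Bche (chr3:73375876-73376132) held matches with 1 mismatch that read alike over their motif letters. The first interval of the B1 only list, nearest Tmem181b-ps, held a match with 2 mismatches. Kcnn4 and Gm6741 are given with 150 bases of context and the others with 30, and Bche was added after its values had been seen.
Tmem181b-ps, minus strand, chr17:6454935-6454964: ctcagaccCCGatcCTtGAAACtgccacat
Kcnn4, minus strand, chr7:25154652-25154801: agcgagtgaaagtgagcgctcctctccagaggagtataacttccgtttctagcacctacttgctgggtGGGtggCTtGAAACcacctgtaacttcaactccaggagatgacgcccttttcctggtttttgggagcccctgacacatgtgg
Gata3, minus strand, chr2:9794396-9794425: tgagggcggTGGaCTaGAAACagccagagg
Gm6741, minus strand, chr17:91818748-91818897: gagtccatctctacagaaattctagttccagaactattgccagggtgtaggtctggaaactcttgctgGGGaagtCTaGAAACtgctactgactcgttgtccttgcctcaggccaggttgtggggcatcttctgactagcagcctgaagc
Stfa3, plus strand, chr16:36488425-36488454: atcgttaGGGgctcTTaGAAACtgtcttga
Bche, minus strand, chr3:73375978-73376007: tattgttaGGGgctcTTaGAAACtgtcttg

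Among the intervals with a peak in all 4 lists, the following are at the extremes of the difference between clones described further on. Cdc25a (interval chr9:109773501-109773856), Cul1 (chr6:47403964-47404335) and Mdm2 (chr10:117148534-117148832) scored higher in B1, and Asns (chr6:7694634-7694849), Sept7 (chr9:25104378-25104694) and Ctnnb1 (chr9:120764731-120765015) scored higher in B6. The matches near Sept7 and Ctnnb1 were exact, and the other 4 had 1 or 2 mismatches. Cul1 and Ctnnb1 were added for their known roles, after their values had been seen.
Cdc25a, plus strand, chr9:109773564-109773713: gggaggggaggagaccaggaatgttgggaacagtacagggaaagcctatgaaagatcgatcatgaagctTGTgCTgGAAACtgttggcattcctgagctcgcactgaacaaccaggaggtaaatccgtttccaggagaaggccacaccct
Mdm2, plus strand, chr10:117148632-117148661: cggggtgagAGGgCTgGAAACttttggctg
Cul1, minus strand, chr6:47404135-47404164: cggggcggGGGagcCAaGAAACcgtcgccg
Asns, plus strand, chr6:7694680-7694829: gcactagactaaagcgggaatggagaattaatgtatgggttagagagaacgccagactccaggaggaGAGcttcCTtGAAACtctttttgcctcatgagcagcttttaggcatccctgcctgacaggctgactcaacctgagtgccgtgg
Sept7, plus strand, chr9:25104506-25104535: atagcctGGGcatcCTaGAAACtagctttg
Ctnnb1, minus strand, chr9:120764861-120764890: accagccaGGGcccCTgGAAACtgccaatt

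The first question was how far the clones share their peaks. The 900 intervals found in all 4 lists were 38.4% of the 2343. They made up 72.7% of the 1238 intervals with a peak in both B1 lists and 90.2% of the 998 with a peak in both B6 lists. The B1 only list held 10.1% of the former (exact 95% interval 8.47 to 11.9) and the B6 only list 2.61% of the latter (1.71 to 3.79). Of all merged intervals these were 5.34% and 1.11%. Another 213 intervals had both B1 peaks and 1 B6 peak, and 72 had both B6 peaks and 1 B1 peak. Of the pairs of lists that cross the clones, B1 replicate 2 with B6 replicate 1 alone shared 77 intervals, B1 replicate 2 with B6 replicate 2 shared 47, B1 replicate 1 with B6 replicate 1 shared 44, and B1 replicate 1 with B6 replicate 2 shared 27. The B1 only count of 125 lay above all of these, and the B6 only count of 26 lay below all of them. B1 replicate 2 had the most peaks and B6 replicate 2 the fewest, and the part of list length in these counts was not tested. Intervals in a single list numbered 812, of which 392 were from B1 replicate 2.

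**Figure D1:**
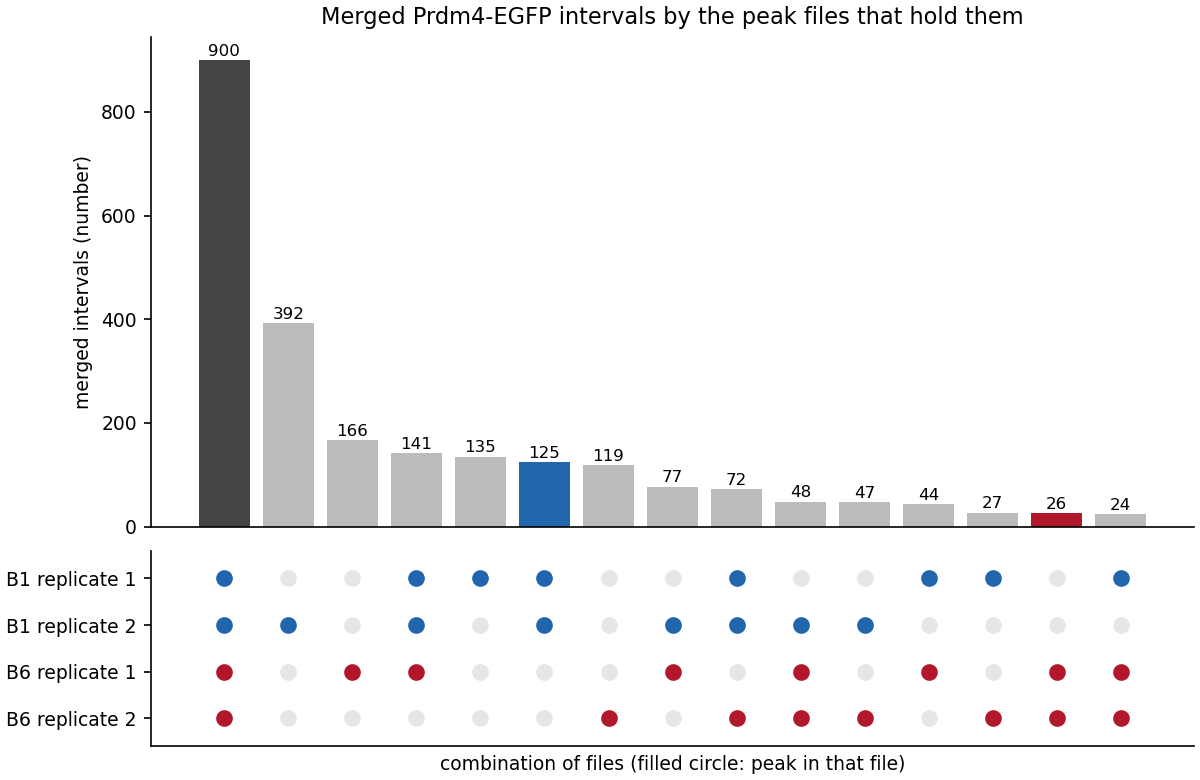
Number of merged intervals (bars, vertical axis) for each of the 15 combinations of peak lists, with filled circles below each bar marking the lists that held a peak. The 900 intervals in all 4 lists are the tallest bar, the 125 B1 only intervals are in blue and the 26 B6 only intervals in red.

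Intervals found in 1 clone only were weak in the clone that had them. In the B1 only list the scores ran from 3.08 to 25.1 in B1 replicate 1, with a median of 8.58, and from 2.07 to 23.6 in B1 replicate 2, with a median of 9.14. In the B6 only list they ran from 2.48 to 13.9 in B6 replicate 1, with a median of 6.92, and from 2.57 to 14.6 in B6 replicate 2, with a median of 5.87. For comparison, the median score over the 900 shared intervals was 27.8 and 29.9 in the B1 lists and 25.6 and 22.2 in the B6 lists. Low scores were not particular to intervals of 1 clone. Over both lists the median was 8.8 for B1 only and 6.0 for B6 only. For intervals in 1 list of each clone and no other it ran from 6.6 to 8.6. The study used a minimum score of 10, and only 14 B1 only intervals and 1 B6 only interval reached it in both lists of their clone. No B1 only interval scored above 25.1 and no B6 only interval above 14.6 in any experiment.

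By score, the B1 only list was led by an interval in an intron of Gm2792 and the pseudogene Tmem181b-ps (chr17:6454799-6455138), with 18.5 in B1 replicate 1 and 22.0 in B1 replicate 2. The next was 0.543 kb upstream of the transcription start site (TSS) of Kcnn4, a calcium-activated potassium channel, with scores of 24.5 and 10.1. An interval in a coding exon of Accs scored 10.6 and 21.6 and was the only one of the first 10 with no motif match. Gata3, a zinc finger transcription factor of T cell and trophoblast development, had an interval 5.85 kb downstream of its TSS with scores of 10.4 and 21.7. The interval upstream of Mppe1 was at 25.1 in one experiment and 6.66 in the other. These replicates of B1 differed from each other by more than 2-fold at Kcnn4, Accs, Gata3 and Mppe1, and B6 had no peak at any of them. The rest of the first 10 lay nearest Gm2792, the deubiquitinase gene Usp11, Orm1 (a plasma acute-phase protein), Zcchc14 and Ttc29, with scores from 7.06 to 23.6. In all, 4 of the 10 lay within 5 kb of a TSS and 2 held an exact motif.

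The B6 only list was led by the interval 183 kb downstream of the Gm6741 TSS, with scores of 13.9 and 14.6 in B6 replicates 1 and 2, the only one above 10 in both. It was followed by an intergenic interval nearest 1700008P02Rik with 12.8 and 7.37, which had no motif match, and by one 33.0 kb upstream of Stfa3 (a stefin, of a family of cysteine protease inhibitors) with 9.33 and 10.6. An interval in an intron of Ndufs4, which encodes a subunit of mitochondrial complex I, scored 13.1 and 6.61. The interval nearest Bche, the butyrylcholinesterase gene, scored 11.6 and 6.98. Further members of the first 10 were in a coding exon of Ryr1, the calcium release channel of skeletal muscle (13.9 and 2.97), and 2.89 kb upstream of Polm, a DNA polymerase gene (6.53 and 10.3). Of the 10, 1 lay within 5 kb of a TSS, 2 held an exact motif and 6 resembled 10 or more other intervals in sequence.

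The position and sequence of the intervals were set beside those of the shared and of all merged intervals. A TSS of a protein-coding transcript lay within 5 kb of 36.0% of B1 only intervals (45 of 125; exact 95% interval 27.6 to 45.1), of 15.4% of B6 only intervals (4 of 26; 4.36 to 34.9) of 30.1% of shared intervals and of 28.4% of all merged intervals. Without B6 replicate 2 the B6 share was 29.7%. Intergenic intervals were 50.4% of B1 only (exact 95% interval 41.3 to 59.5) and 73.1% of B6 only (52.2 to 88.4). They were 59.6% of shared and 56.6% of all merged intervals. A motif with up to 2 mismatches was found in 79.2% of B1 only, 84.6% of B6 only, 90.9% of shared and 79.2% of all merged intervals, so the B1 only share was that of all intervals. The B6 only motif share was 57.9% without B6 replicate 1 and 56.3% without B6 replicate 2. In windows of the same width moved 10 kb to either side, the same search matched 8.80%, 7.69% and 13.8%. An exact motif was found in 18.4%, 26.9% and 45.1%, and in 28.6% of all merged intervals. The intervals of the B1 only and B6 only shares overlapped for TSS distance and for the motif. Among the 333 shared intervals with a mean score under 20, which are nearer in strength to both lists, 30.3% held an exact motif. Since the members of a list are not replicates of a clone, these shares carry binomial intervals and no test.

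With all 4 experiments in use, the B1 only and B6 only lists stood furthest apart in repeated sequence. An interval was called similar to another if their sequences aligned over at least 100 bp with at least 70% identity, a definition reached after a different one had been tried on these data. Of the B6 only intervals, 57.7% (15 of 26; exact 95% interval 36.9 to 76.6) were similar to 10 or more of the other intervals, against 18.4% of B1 only intervals (23 of 125; 12.0 to 26.3). The share was 40.7% of the 900 shared intervals, 32.7% of those with a mean score under 20 and 32.2% of all merged intervals. Without B6 replicate 1 the share was 31.0% for B6 and 23.7% for B1, and without B6 replicate 2 it was 41.7% and 21.3%. The shares with a motif of up to 2 mismatches then stood further apart. They were 57.9% for B6 and 82.7% for B1 without B6 replicate 1, and 56.3% and 80.2% without B6 replicate 2. The Stfa3 and Bche intervals printed above aligned to 202 and 204 other intervals. Near-identical copies also occurred within the lists, where reads may not be assigned to 1 place. The B6 only interval nearest Stfa3 was 99.3% identical over 148 bp to one near Gm7697 with peaks in B1 replicate 1 and B6 replicate 2. It was also 99.3% identical over 138 bp to one near Rpl9-ps4 with a peak in all 4 lists. The B6 only interval nearest Bche was 99.1% identical over 109 bp to one near 4931440F15Rik with a peak in B1 replicate 1 alone. The B1 only interval at Gm2792 was 100% identical over 260 bp to one near Tmem181d-ps with a peak in B1 replicate 2 alone. The B1 only interval at Apobec3 was 100% identical over 181 bp to intervals near Ly6e and D17H6S56E-5 with peaks in all 4 lists. Calls in 1 clone at such copies are uncertain, and the part of read assignment in them was not tested.

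**Figure D2:**
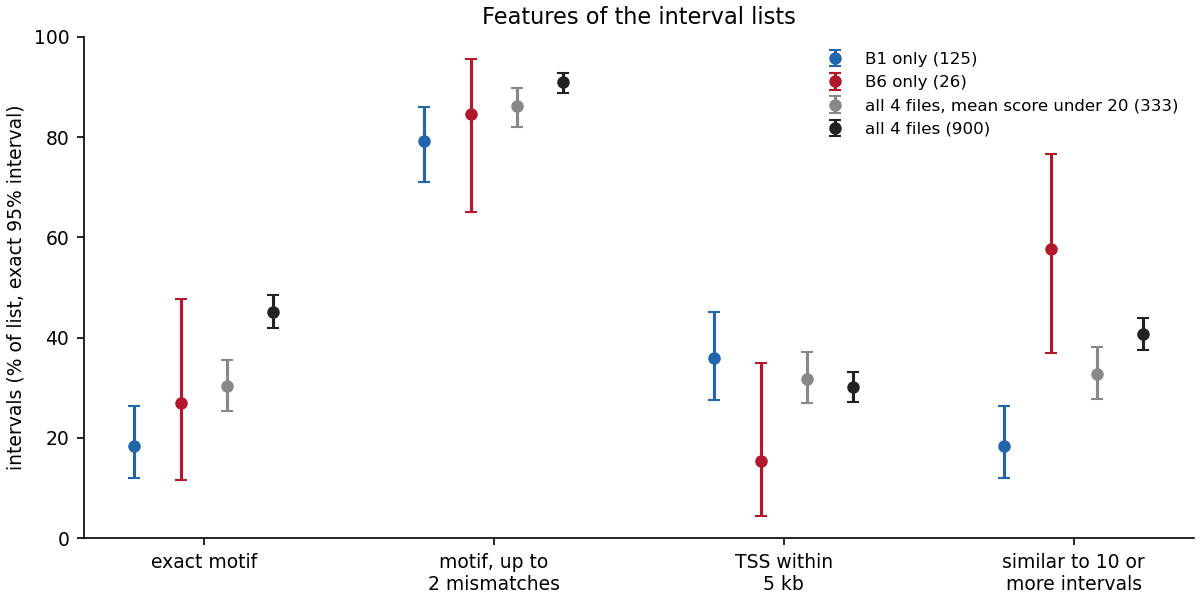
Share of intervals (vertical axis, %) with an exact motif, a motif with up to 2 mismatches, a TSS within 5 kb, or similar sequence in 10 or more other intervals, for 4 lists of intervals. Points are shares and bars exact 95% binomial intervals; B6 only intervals are highest for repeated sequence at 57.7%, and B1 only intervals lowest for the exact motif at 18.4%.

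Genes of pathways with roles in ESCs were followed on lists of pluripotency factors, Nodal, BMP and TGF-beta signalling, Wnt signalling, lineage and patterning regulators, the Prdm family and cell cycle regulators. An interval was assigned to a gene if it lay within 50 kb of its TSS, whether or not another gene was nearer. By the same rule, 6.56% of the 22202 protein-coding genes in the annotation had a shared interval, 1.12% a B1 only and 0.113% a B6 only interval. The counts of the lists were not tested against these shares. Of 27 pluripotency factors, 4 had a shared interval (Dppa3, Dppa4, Klf5 and Zfp42) and 1 a B1 only interval. Of 33 Wnt pathway genes, 5 had a shared interval (Dvl1, Dvl3, Fzd1, Fzd2 and Tcf3) and none was on either list of 1 clone. Of 24 Nodal, BMP and TGF-beta genes, 3 had a shared interval (Bmp4, Nodal and Ski). Of 26 cell cycle regulators, 3 had a shared interval (Ccnb1, Cdc25a and Cdk1) and 3 a B1 only interval, and of the 19 lineage regulators present in the annotation 1 had a shared (Otx2) and 2 a B1 only interval. Of 17 genes of the Prdm family, 1 had a shared interval (Prdm1). No gene of any list had a B6 only interval, a list of 26 intervals against the 125 of B1 only.

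The 6 B1 only intervals at listed genes scored from 3.78 to 18.01. Those assigned to Dppa3, Ccnd3 and Rb1 held no motif match, and that at Gli2 held an exact one. Those assigned to Cdkn1a and Hhex held matches with 1 and 2 mismatches. The interval 17.8 kb upstream of Dppa3, a marker of pluripotent and germ cells, lay in an intron of Gdf3. This TGF-beta family gene has its TSS 1.45 kb away, and the interval scored 18.01 in B1 replicate 1 and 4.86 in B1 replicate 2. In an intron of Gli2, a transcription factor of the Hedgehog pathway, the scores were 9.42 and 14.0. The interval 14.2 kb upstream of Hhex, a homeobox gene of the early endoderm, lay in an intron of Kif11 and scored 11.3 and 7.23. In introns of Ccnd3 (cyclin D3) and Rb1 (the retinoblastoma protein) the scores were 7.66 and 10.4 and 3.78 and 14.3. The interval 37.2 kb from the TSS of Cdkn1a (the CDK inhibitor p21) lay in the 5′ UTR of Rab44, 0.389 kb from its TSS, and scored 9.02 and 10.4. At each of the 6 genes 1 experiment was above 10 and the other below it. None would be on the list if both experiments had to reach the minimum score of the study.

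The second question was whether shared sites had the same score in both clones. A score of a peak caller also moves with sequencing depth, which is unknown here, so a difference in score cannot be told apart from one in depth. Over the 900 shared intervals the mean log10 score was 1.48 in B1 replicate 1, 1.52 in B1 replicate 2, 1.46 in B6 replicate 1 and 1.40 in B6 replicate 2. Both B1 experiments thus lay above both B6 experiments, by little. The mean was 1.498 ± 0.030 (SD) for B1 and 1.428 ± 0.040 for B6, a difference of 0.07, or 1.18-fold on the scale of the score. It was 0.04 without B6 replicate 2 and 0.10 without B6 replicate 1. The two-sided exact permutation test gave p = 0.333. This is the smallest value that it allows for 2 samples against 2, so this test cannot reach 0.05 here. Across the 900 intervals the means of the clones followed each other, with Pearson's r of 0.908 and Spearman's rho of 0.880. These correlations are across intervals, which are not independent, and they share the wide range of peak strength.

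**Figure D3:**
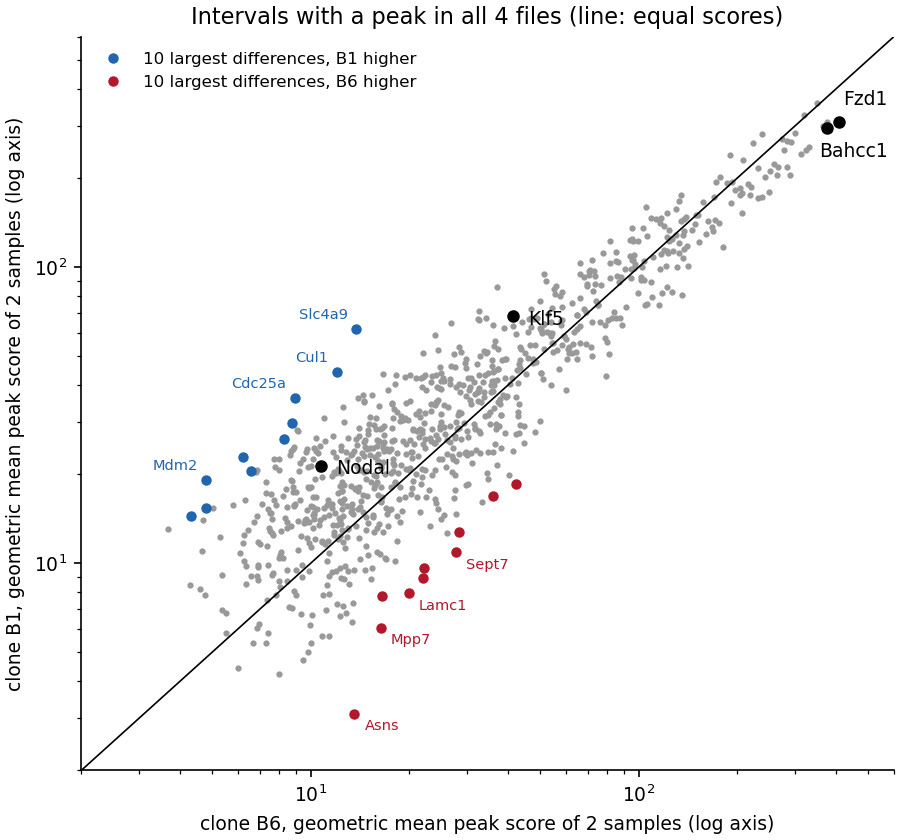
Geometric mean score of each of the 900 shared intervals in clone B6 (horizontal) and clone B1 (vertical), 2 experiments each, both axes logarithmic, with the line of equal scores. Blue and red points are the 10 intervals named in each direction, black points 4 further loci; Fzd1 and Bahcc1 lie at the top end below the line, Klf5 and Nodal above it.

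In the scores as deposited, the difference between clones varied with the strength of the site. When the shared intervals were split by mean score into quintiles of 180 each, a split made after the data had been seen, the geometric mean score of the weakest quintile was 10.3 and 11.5 in the B1 experiments and 9.16 and 8.54 in the B6 experiments. In the second quintile it was 17.1 and 19.8 in B1 against 15.6 and 12.6 in B6, a 1.31-fold difference in deposited scores. In the strongest quintile it was 117 and 126 in B1 against 126 and 118 in B6, so the clones overlapped. Both B1 experiments thus lay above both B6 experiments in each of the other 4 quintiles, and the clones overlapped in the strongest, which is a description with no test. The SD of log10 score over intervals was 0.40 in both B1 lists and 0.43 and 0.44 in the B6 lists.

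To compare single intervals, each experiment was centred on its median log10 score, which removes a difference common to all intervals. On that scale 148 intervals had both B1 scores above both B6 scores (16.4% of 900), 229 had both B6 scores above both B1 scores (25.4%), and in 523 the clones overlapped. In the strongest quintile 96 intervals lay higher in B6 and 10 higher in B1, and the mean difference was -0.09. In the weakest quintile the counts were 32 and 27. The direction depends on the scaling: with scores as deposited, 273 intervals lay higher in B1 and 115 higher in B6, and in the strongest quintile 44 and 46. With quantile normalization, which forces the same distribution on every experiment, 172 lay higher in B1 and 173 in B6, and in the strongest quintile 42 and 44. The mean difference per quintile then ran from -0.007 to 0.014.

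**Figure D4:**
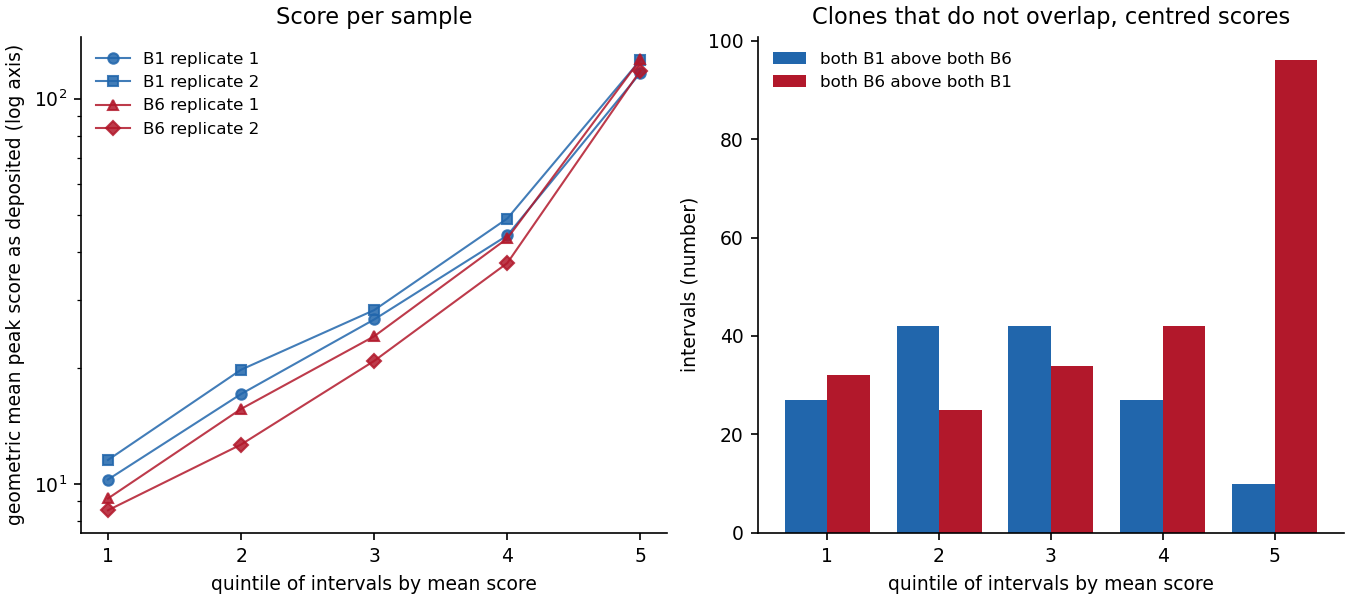
Left, geometric mean score as deposited (vertical, logarithmic) in each experiment over quintiles of the 900 shared intervals ordered by mean score. Right, number of intervals in each quintile whose centred scores do not overlap between clones; in the strongest quintile 96 lay higher in B6 and 10 higher in B1.

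No single interval differed between clones past the threshold. The limma moderated test on centred log10 scores, with Benjamini-Hochberg adjustment over the 900 intervals, called 0 (0% in either direction), and its lowest adjusted p was 0.400. At an unadjusted p under 0.05 there were 77 intervals (8.56%), 37 higher in B1 and 40 higher in B6. The median size of the difference was 0.12 in log10, or 1.31-fold, and the median SD within a clone was 0.11, which are unlike measures. Over intervals the SD of the clone difference was 0.18, beside a root mean square SD within a clone of 0.15. The clone differences were thus somewhat wider than that spread, which was not tested. The median half-width of the 95% interval of a single difference, before any adjustment, was 1.92-fold. In 78 intervals (8.67% of the 900) the clones differed by more than 2-fold, 38 of them higher in B1. How many would do so from the spread within a clone alone was not tested. A limma fit that lets the spread follow the mean score, listed as an alternative, called 15 intervals, 14 of them higher in B6. The spread within a clone fell from 0.22 in the weakest quintile to 0.07 in the strongest, on which that fit draws.

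The intervals that this second fit placed higher in B6 were strong sites. At Fzd1 (chr5:4757715-4758387), a Wnt receptor gene with the interval in its 5′ UTR, the scores were 313 and 306 in B1 and 391 and 429 in B6. At Fzd2 (chr11:102465403-102465934), another receptor of the family, they were 201 and 237 against 288 and 280. Upstream of Bahcc1 (chr11:120092627-120093196) they were 298 and 293 against 365 and 387. At each of these 3 genes the groups did not overlap, also in the scores as deposited. Centred, the difference was 1.60-fold at Fzd1 and 1.54-fold at Bahcc1. With the common spread the limma adjusted p was 0.578 at both, and with the trend 0.028 and 0.042. Intervals at Rps29 and Rps20, which encode ribosomal proteins, at Ssbp3 and at Nfib were called in the same direction by the trend fit. Its one call in the other direction was upstream of Slc4a9, which is described next. These calls rest on both the spread and the centring. The trend fit on scores as deposited called 1 interval, Slc4a9, and on quantile-normalized scores 0 (87 at an unadjusted p under 0.05), both added after seeing the data. In the deposited scores the ratio of B6 to B1 was 1.32 at Fzd1 and 1.27 at Bahcc1.

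Among intervals without overlap between the clones, the 10 largest differences with B1 higher lay between 2.58-fold and 3.69-fold on the centred scale, with unadjusted limma p from 0.001 to 0.046 and adjusted p from 0.521 to 0.572. The first was 2.77 kb upstream of Slc4a9, of the bicarbonate transporter family, with scores of 56.2 and 67.6 in B1 and 16.3 and 11.7 in B6. Upstream of Cdc25a, the phosphatase that activates cyclin-dependent kinases, they were 48.6 and 26.8 against 17.8 and 4.48. Near the TSS of Cul1, the scaffold of SCF ubiquitin ligases, they were 37.3 and 52.5 against 14.8 and 9.78. The absence of overlap in these intervals is set by how they were chosen. Upstream of Mdm2, the ubiquitin ligase of p53, B1 scored 10.98 and 33.1 and B6 scored 4.32 and 5.32. Upstream of Oxsr1, a kinase gene, B1 scored 28.0 and 31.6 and B6 scored 9.85 and 7.81. Ppfia3, Nedd4l, Gm17582, Tmem192 and Leo1 completed the 10. On the log10 scale the difference at Cdc25a was 0.52 with all experiments and 0.24 without B6 replicate 2, and that at Mdm2 was 0.52 and 0.29 without B1 replicate 2. Of these intervals 8 lay within 5 kb of a TSS and 3 resembled 10 or more others.

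Among intervals without overlap, the 10 largest differences with B6 higher lay between 2.57-fold and 5.29-fold, with unadjusted limma p up to 0.017 and adjusted p from 0.400 to 0.572. The first was 51.5 kb upstream of Asns, the asparagine synthetase gene, with scores of 2.67 and 3.61 in B1 and 16.2 and 11.4 in B6. In an intron of Sept7, which encodes a septin, they were 13.6 and 8.77 against 23.8 and 32.4. In an intron of Lamc1, the laminin gamma 1 chain, they were 10.7 and 5.88 against 25.8 and 15.3. The absence of overlap is again set by the choice, and the Asns interval was below the median of the shared intervals in both clones. The interval 73.5 kb upstream of Ctnnb1, which encodes beta-catenin, scored 7.44 and 10.7 in B1 and 19.03 and 25.6 in B6. The interval nearest Gbe1, the glycogen branching enzyme, scored 16.3 and 21.0 against 42.9 and 41.4. In the 5′ UTR of Agtpbp1 the scores were 11.8 and 24.1 against 40.3 and 32.3. Mpp7, Olfr1425 and E030025P04Rik were also among the 10, of which 2 lay within 5 kb of a TSS and 4 resembled 10 or more others.

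The contrast in distance to TSSs between these sets of 10 was not carried by the longer lists. Of the 148 intervals without overlap and B1 higher on the centred scale, 35.1% lay within 5 kb of a TSS, against 32.8% of the 229 with B6 higher and 30.1% of all 900 shared intervals. These lists hold for median centring and change in size with the scaling. The exact motif was found in 36.5% of the former (95% interval 28.7 to 44.8) and 62.9% of the latter (56.3 to 69.2), beside 45.1% of the 900, and similarity to 10 or more intervals in 30.4% and 49.8%, beside 40.7%. The median geometric mean score was 21.5 in the former and 48.3 in the latter, and the part of strength in these shares was not tested. In the strongest quintile the mean centred difference was -0.09 at the 141 intervals with an exact motif and -0.06 at the 39 without one. In the same quintile it was -0.09 at the 102 intervals in repeated sequence and -0.08 at the other 78. For repeated sequence the gap was widest in the middle quintile, with -0.05 against 0.04 for the others, and the values were 0.01 and 0.01, 0.03 and 0.04, and -0.04 and -0.01 in the first, the second and the fourth. For the exact motif they were 0.01 and 0.01, 0.01 and 0.04, -0.03 and 0.02, and -0.02 and -0.02 in the first to the fourth.

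Klf5, a pluripotency factor, and Nodal, a signal of early patterning, went the other way from Fzd1 and Bahcc1. In the interval in a Klf5 intron (chr14:99702276-99702652) the scores were 66.2 and 70.5 in B1 and 40.8 and 42.2 in B6. In a Nodal intron (chr10:60882932-60883303) they were 16.3 and 28.0 against 10.03 and 11.6, and at the second interval within 50 kb of its TSS, 5.18 kb upstream of Eif4ebp2, they were 39.3 and 43.3 against 26.4 and 23.6. At all 3 intervals both B1 scores exceeded both B6 scores, as deposited and when centred. On the centred scale the difference was 1.36-fold at Klf5 and 1.64-fold at the Nodal intron, with limma adjusted p of 0.656 and 0.578. All 4 genes thus had a peak in every experiment of both clones, and none differed past the threshold in the fit with a common spread.

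The last question was whether any chromosome stood apart, as clones of one line can differ over a whole chromosome. The mean centred log10 score was compared over the 20 chromosomes, and 1 of them (5% of those tested) passed the limma test. Chromosome X, with 22 shared intervals, had means of -0.09 and -0.05 in the B1 experiments and 0.02 and 0.03 in the B6 experiments. The difference was -0.10 ± 0.02 (SE), with an adjusted limma p of 0.029. B1 was below B6 at 16 of the 22 intervals, and the widest gap was 19.9 kb upstream of Armcx4, with 6.09 and 26.2 in B1 and 26.3 and 25.9 in B6. The median of the 22 differences was -0.11, and their mean without the 3 lowest was -0.06. The call was kept with quantile normalization (-0.10, adjusted p = 0.0029 with limma). It was lost with scores as deposited, where the difference was -0.01 (adjusted p = 0.716), and when the median score of each experiment over the chromosome replaced the mean (-0.02, adjusted p = 0.731). It was also lost without B1 replicate 1 (-0.09, adjusted p = 0.251) and with peaks scoring at least 10 (-0.05, adjusted p = 0.482). Chromosomes 7 and 12 had differences of -0.04 each, with adjusted p of 0.272. Chromosome X held 4 of the 125 B1 only and 2 of the 26 B6 only intervals, beside 55 of all 2343 merged intervals (2.35%).

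**Figure D5:**
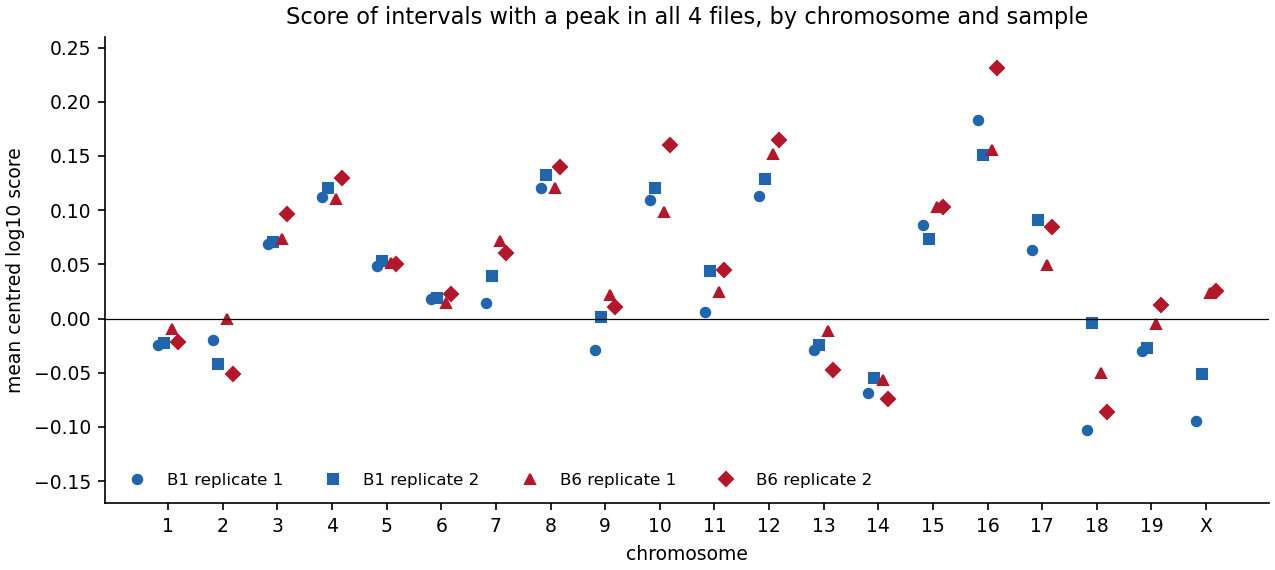
Mean centred log10 score (vertical) of the shared intervals on each chromosome (horizontal), one point per experiment. On chromosome X both B1 points (-0.09 and -0.05) lie below both B6 points (0.02 and 0.03).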

How the data were processed

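The authors immunoprecipitated Prdm4-EGFP with anti-GFP from 2 ESC clones in 2 experiments each, used Stampy to align reads to mm9 and MACS2 to find peaks, with default settings in each. The deposited lists give a score per peak, before the minimum score of 10 was applied, and the scale of this score and the software versions are not given in the sources used here. Groups follow the sample labels. Peaks on chromosomes 1 to 19 and X were merged at an overlap of 1 bp, the highest score per list was taken, and log10 scores were centred on each experiment's median over intervals with a peak in all 4 lists. Clones were compared with limma 3.58.1 in R 4.3.3 (Benjamini-Hochberg threshold 0.05) and with an exact permutation test of the means.

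Each interval is named by its nearest protein-coding TSS, or at listed genes by any TSS within 50 kb (GENCODE vM1 on the NCBI build of mm9, 45939 start sites). Similar sequences were found with BLAST+ 2.17.0 (E-value at most 1e-10). Named intervals are the 10 with the highest score in each list of 1 clone, the 10 largest differences without overlap in each direction, those at listed genes on a list of 1 clone, and the loci Bahcc1, Nodal, Klf5 and Fzd1; the intervals named from the trend fit, on chromosome X and at near-identical copies were chosen after their values were seen. 1 interval that the rule selects is not reported here by name. Sequences are from the first members with a match, and none from chromosome 18 is shown. Members, lists and tests were chosen with earlier results of these data known. Depth is unknown, so precision rests on 2 experiments per clone, and binomial intervals cover counting error only. Alternatives were other scalings, score minimums, overlaps, spreads, a replicate block and leaving out each experiment.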

Additional observations from a re-analysis of the deposited data

Results flagged for a closer look

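B6 replicate 1 held 15 peaks on the mitochondrial chromosome, which the comparison left out, and the other 3 lists held 0, B6 replicate 2 included. Their median score was 4.21 and the highest 8.31, under the minimum score of 10. They drew attention because they appear in 1 list alone, outside the chromosomes compared.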

How the results depend on the processing

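Of the values computed under alternatives for 14 results, 73 stayed on the same side or close, 43 moved and 4 weakened. The named interval at Slc4a9 passed the threshold with the trend on the mean score, with median centring and with no centring. That trend is not part of the 140 values of the 20 named shared intervals, which all kept their direction, with none past the threshold. Among these, log10 differences moved by over 1.5 times at Cdc25a (0.52 to 0.24) and Nedd4l (0.44 to 0.22) without B6 replicate 2, at Ppfia3 (0.48 to 0.19) and Tmem192 (0.42 to 0.24) without B6 replicate 1, at Ppfia3 (to 0.75) without B6 replicate 2 and at Mdm2 (0.52 to 0.29) without B1 replicate 2. The overall difference ranged from 0.04 to 0.10, and from 0.04 to 0.10 when each experiment was left out in turn. With the replicate block it was 0.07 (p = 0.5 by exact sign flips of 2 pairs) and limma called 0 intervals. Across intervals the replicate differences of the 2 clones were not correlated (-0.01). This correlation cannot see an offset common to a whole experiment. Whether same-numbered experiments share a day or batch is not stated. Limma calls were 0 in each alternative apart from the trend on the mean score, which gave 15, and the trend with no centring, which gave 1 (added after seeing the data, as was the trend with quantile normalization), with 57 (without B1 replicate 2) to 125 (trend) intervals at an unadjusted p under 0.05. Intervals without overlap became 273 (B1 higher) and 115 (B6 higher) with no centring, and 268 to 306 and 360 to 431 when an experiment was left out, where 1 sample stands against 2. Chromosome X stayed called with quantile normalization and the replicate block (adjusted p = 0.0029 and 0.0081). Chromosome calls fell to 0 with the chromosome median (X at -0.018), with no centring, added after seeing the data (-0.015), and at scores of at least 10 (-0.048). Without B1 replicate 1 there were 0 and without B6 replicate 1 there were 2, and leaving out an experiment gave -0.125 to -0.0865 for X. The cause was not tested. The B1 only list held 74 and 57 intervals at minimum scores of 10 and 20 in all lists, 14 when only its own peaks had to reach 10, and 197 (without B6 replicate 2) to 517 (without B1 replicate 1) when an experiment was left out, where fewer lists have to match. The B6 only list held 12, 5, 1 and 50 (without B1 replicate 1) to 192 (without B6 replicate 2). B1 only intervals lay within 1 kb of a TSS in 20%, within 10 kb in 47.2%, and within 5 kb in 21.4% of the 14 with own scores of at least 10. Motif shares of B1 only were 18.4% (exact), 57.6% (up to 1 mismatch), 92.9% (those 14) and 70.4% to 82.7% when an experiment was left out, lowest without B1 replicate 1. For B6 only, 3.85% lay within 1 kb, 16.2% to 29.7% within 5 kb when an experiment was left out, 26.9% held an exact motif, and leaving out an experiment gave motif shares of 56.3% to 84.0% (57.9% without B6 replicate 1) and repeated sequence in 31.0% to 48.6%. With 1 B6 only interval left at own scores of at least 10, no shares were computed. The similarity thresholds were added after seeing the data.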
